A study of Homo sapiens with 6 samples.

Results

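The JAK-STAT pathway and its cytokine receptors were examined as 48 genes, picked by gene name from the 27009 genes of the expression table. They comprised 4 Janus kinases, 6 STAT factors, 8 SOCS family genes, 4 PIAS genes, 4 phosphatases and 22 receptor genes. RNA sequencing had been performed on Hep3B, a human hepatocellular carcinoma line, to ask which transcripts accompany nuclear PD-L1. All 6 libraries came from cells in which endogenous PD-L1 was knocked out. The 3 vector libraries carried the empty vector, and the 3 libraries labelled nPD-L1 carried a mutated PD-L1, compartmentalized in the nucleus, that had been delivered by lentivirus and was driven by a CMV promoter. The study calls the sequenced samples of a group independent, but whether they were separate cultures, and whether either stable line was a single clone, was not given in the sources used here, so the p values measure the spread between these libraries, which may be technical. In bulk RNA, fewer cells with a transcript and less transcript per cell cannot be told apart.

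Cytokines bind paired receptor chains that hold Janus kinases on their cytoplasmic tails. The kinases phosphorylate the tails and then the STAT proteins, which dimerize, enter the nucleus and bind DNA at palindromic GAS elements. SOCS proteins are inhibitors, and some of their genes, such as CISH and SOCS2, are themselves STAT targets and so act as feedback. PIAS proteins restrain STATs in the nucleus, and phosphatases can remove the activating phosphates. In liver cells, the IL-6 family of cytokines uses this route to switch on acute-phase proteins, and interferons use it to switch on antiviral genes.

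Values are scaled reads (reads per gene over a size factor of the library), at depths of 17427519 to 22253295 reads on genes over the 6 libraries, as read from the steps between values. CD274, the PD-L1 gene, stood at 28.3, 38.4 and 47.8 scaled reads with the vector and at 16.8, 19.2 and 30.9 under the nPD-L1 label (log2 fold change −0.76, limma adjusted p = 0.338), with p = 0.2 in an exact permutation test (two-sided; smallest possible 0.1). The introduced PD-L1 was thus not visible as more CD274 reads, and the directions below are only as good as the labels. Of the hepatocyte markers, 7 (ALB, APOA1, APOA2, APOB, TTR, TF and AHSG) did not exceed 3.39 scaled reads in any library, and SERPINA1 lay between 7.91 and 41.4. AFP, also on the hepatocyte marker list, was not in the table. Other secreted liver proteins were uneven. The fibrinogen chains FGA, FGB and FGG stood at 1861 to 3286, 962 to 1540 and 658 to 1129, and complement C3 at 766 to 1236. SAA1 lay between 41.5 and 71.2 scaled reads and SAA2 between 5.20 and 12.4. SERPINA3, ORM1, ORM2, A2M and HAMP did not exceed 2.52 in any library, and LBP and HPX did not exceed 8.68 and 10.1. The lymphocyte markers, of which 5 of 10 were in the table, summed to 17.2 to 24.9 scaled reads with the vector and 17.4 to 29.3 under the nPD-L1 label, and PTPRC, which marks all leukocytes, was listed at 0 in 5 libraries and at 2.52 in nPD-L1 replicate 1. Macrophage markers summed to 6.06 to 22.6 and 14.2 to 28.6 scaled reads in the same order, and fibroblast markers to 170 to 245 and 586 to 655. Of these lists, COL1A1, a fibrillar collagen, rose from 82.8, 63.2 and 49.9 to 465, 445 and 487 (2.84 on the log2 scale), and HNF4A, a hepatocyte transcription factor, rose from 19.2, 11.3 and 6.24 to 51.3, 51.6 and 33.8 (1.91). The part of these genes in the results below was not tested.

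Promoter windows are given for 4 members because they show both sides of the pathway at the sequence level, the pair of receptor genes that changed and 2 genes dense in the STAT-binding motif. They run from 250 bases before to 50 bases after the RefSeq start site (GRCh38.p14), 5′ to 3′ on the gene's strand, with matches to the GAS core TTCNNNGAA in capitals. The windows lie at chr16:27313724-27314023 (+ strand, IL4R), chr16:27427021-27427320 (+ strand, IL21R), chr3:50611725-50612024 (− strand, CISH) and chrX:1336535-1336834 (+ strand, IL3RA).
IL4R: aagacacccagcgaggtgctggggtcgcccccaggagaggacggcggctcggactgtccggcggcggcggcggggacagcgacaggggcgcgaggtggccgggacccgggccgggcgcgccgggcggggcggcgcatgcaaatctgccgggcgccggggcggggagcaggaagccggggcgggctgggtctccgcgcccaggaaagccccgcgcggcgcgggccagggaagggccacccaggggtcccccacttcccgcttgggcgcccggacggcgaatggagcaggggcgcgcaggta
IL21R: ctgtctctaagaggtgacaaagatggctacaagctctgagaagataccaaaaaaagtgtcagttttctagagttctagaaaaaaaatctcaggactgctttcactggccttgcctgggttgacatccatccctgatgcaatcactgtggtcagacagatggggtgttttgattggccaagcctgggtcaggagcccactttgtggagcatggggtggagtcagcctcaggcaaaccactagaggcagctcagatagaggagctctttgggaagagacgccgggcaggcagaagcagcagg
CISH: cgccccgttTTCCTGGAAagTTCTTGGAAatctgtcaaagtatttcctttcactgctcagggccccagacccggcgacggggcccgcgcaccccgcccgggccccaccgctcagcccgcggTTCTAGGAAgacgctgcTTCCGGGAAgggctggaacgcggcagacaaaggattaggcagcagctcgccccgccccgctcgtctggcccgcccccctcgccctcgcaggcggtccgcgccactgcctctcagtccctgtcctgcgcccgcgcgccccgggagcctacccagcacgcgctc
IL3RA: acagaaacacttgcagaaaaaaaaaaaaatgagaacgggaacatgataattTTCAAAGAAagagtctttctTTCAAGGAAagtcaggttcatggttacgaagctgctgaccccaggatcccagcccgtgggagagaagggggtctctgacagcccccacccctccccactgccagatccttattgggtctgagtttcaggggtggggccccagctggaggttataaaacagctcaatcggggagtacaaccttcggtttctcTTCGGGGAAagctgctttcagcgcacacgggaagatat
CISH, a SOCS family gene known for its induction by STAT5, had 4 matches in its window and IL3RA had 3. The windows of IL4R and IL21R held none, and they differed in composition, with 79.3% and 51.0% G and C bases. The printed IL21R window begins at 27427021, well inside the annotated gene (27402162 to 27452042). It thus covers an internal start site and not the 5′ end of the gene. A window was found for 42 of the 48 members, and not for SOCS2, SOCS5, SOCS7, PTPN11, IFNAR2 and CRLF2. The GAS core was in the windows of 6 of these 42 (CISH, IFNLR1, IL10RB, LIFR, IL3RA and GHR), or 14.3%, against 7.66% of all 35116 windows. The AP-1 core TGANTCA was in 6 other members (STAT4, PIAS2, IL22RA1, IL6R, OSMR and PRLR), or 14.3% as well, against 7.71% of all windows. A member was counted if any of its windows matched, while the shares over all windows count single windows, so the percentages are not of like units. Both strands were searched, and matches to both motifs shared a base in 21 of all windows and in 0 windows of the members. A match is a stretch of letters and not a measured binding site.

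Of the 48 members, 46 reached 10 scaled reads in at least 3 libraries and were tested with limma among 15076 genes in all. IL21R and IL4R were higher and SOCS2 was lower under the nPD-L1 label with an adjusted p (Benjamini-Hochberg) under 0.05, while 43 members did not pass. Thus 2 members were called higher, where 4.04% of all genes tested were, and 1 was called lower, where 0.922% were. Taken in both directions, 6.52% of the members tested were called, against 4.96% of all genes tested. The member count was therefore close to that of genes in general. The log2 fold change was above 0 for 30 members (65.2%, against 46.7% of all genes tested) and below 0 for 16, and its median was 0.11 over the members and −0.02 over all genes tested. In 36 members it was under 0.5 in size, and in 29 it was under 0.25. The standard errors ran from 0.09 to 0.53 with a median of 0.17 on the log2 scale.

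**Figure D1:**
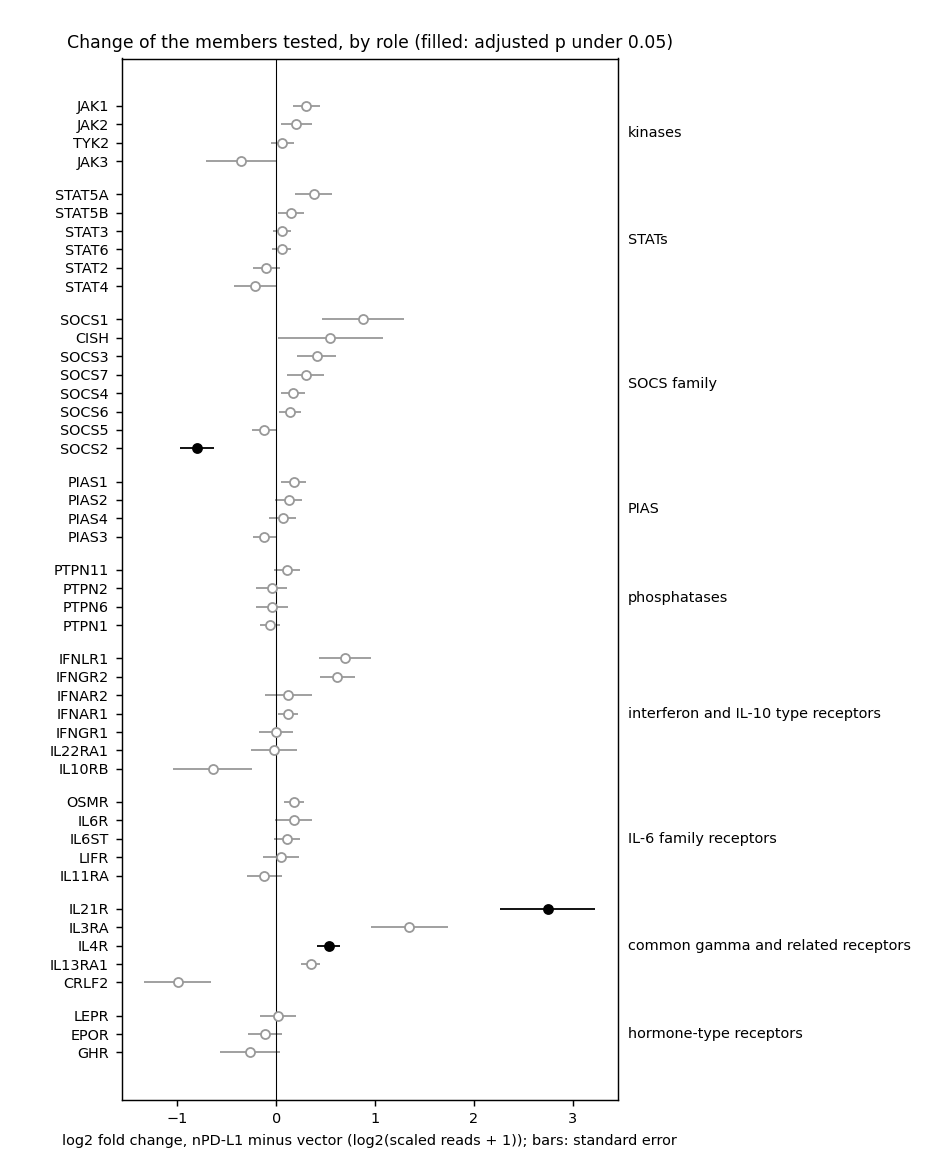
Log2 fold change of the 46 members tested (x axis, libraries labelled nPD-L1 minus vector, on log2(scaled reads + 1)) by gene and role (y axis). Points are limma estimates, bars are standard errors, and filled points have an adjusted p under 0.05. IL21R (2.75) and IL4R (0.53) lie to the right, SOCS2 (−0.80) lies to the left, and the kinases and STATs all lie within 0.38 of 0.

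IL21R and IL4R were the receptors that passed the test. They belong to the group that signals through the common gamma chain or stands beside it, and their tails bind JAK1, while JAK3 or TYK2 comes with the partner chain. IL21R (ENSG00000103522; chromosome 16, 27402162 to 27452042, + strand, GRCh38) encodes the receptor for interleukin 21, a lymphocyte cytokine. Its scaled reads were 2.02, 2.26 and 2.08 in vector replicates 1, 2 and 3 and 19.3, 22.3 and 18.3 in nPD-L1 replicates 1, 2 and 3. The groups were far apart and each was tight, but every vector library held only 2 reads (in vector replicate 1 and nPD-L1 replicate 2 a scaled read lay within 0.02 of 1 read, and reads were rounded from the values). Summed over the libraries there were 6 and 64 reads, a ratio of 9.42 after scaling, with a 95% interval of 4.1 to 26.6 that covers counting error only. The log2 fold change was 2.75 (standard error, SE, 0.48, limma adjusted p = 0.00626). IL21R reached the minimum value through the nPD-L1-labelled libraries alone, so it entered the test because it was high there. Its call was lost without nPD-L1 replicate 1, 2 or 3 (limma adjusted p = 0.057, 0.066 and 0.054), with log2 fold changes of 2.77, 2.67 and 2.80.

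IL4R (ENSG00000077238; chromosome 16, 27313668 to 27364778, + strand) encodes the alpha chain that binds interleukin 4 and also serves interleukin 13. It had 462, 468 and 547 scaled reads with the vector and 742, 709 and 675 under the nPD-L1 label. The groups did not overlap, and the mean rose from 492 ± 47.3 to 709 ± 33.4 (SD, n = 3 each), a log2 fold change of 0.53 (SE 0.11, limma adjusted p = 0.0226). The call was lost without vector replicate 1 (0.134) and without nPD-L1 replicate 1, 2 or 3 (limma adjusted p = 0.118, 0.108 and 0.0797), while the log2 fold change stayed between 0.49 and 0.61 in all 6 such fits. IL4R and IL21R are neighbours, 37.4 kb apart on the same strand. The closest tested genes around the pair did not pass the test, with log2 fold changes of −0.13 for NSMCE1 and −0.03 for KDM8 on the IL4R side and −0.02 for GTF3C1 and 0.14 for KIAA0556 on the IL21R side.

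IL13RA1, the chain that pairs with the interleukin 4 receptor in non-lymphoid cells, had 1965, 2106 and 2088 scaled reads with the vector and 2443, 2647 and 2753 under the nPD-L1 label. All 3 of the latter were above all 3 vector libraries. The log2 fold change of 0.35 had an SE of 0.09 and did not pass (limma adjusted p = 0.0709). It passed without vector replicate 2, the highest vector library (limma adjusted p = 0.0183). With any other library left out it did not pass (limma adjusted p = 0.0988 to 0.318). IL3RA, the interleukin 3 receptor alpha chain, stood at 15.1, 33.9 and 16.6 against 33.6, 63.7 and 71.4 scaled reads. The groups overlapped only between vector replicate 2 and nPD-L1 replicate 1, and the log2 fold change was 1.34 (SE 0.39, limma adjusted p = 0.0945). It passed without vector replicate 2, again the highest vector library (limma adjusted p = 0.00613), but not with any other library left out (0.0746 to 0.401). CRLF2, the receptor chain for thymic stromal lymphopoietin, had 33.3, 30.5 and 21.8 against 15.1, 13.1 and 12.5 scaled reads without overlap, the vector libraries being the higher, and its log2 fold change of −0.999 did not pass (limma adjusted p = 0.164). CRLF2 and IL3RA also lie near each other, 124 kb apart, with CSF2RA between them (log2 fold change 0.009, limma adjusted p = 0.99). This stretch lies in the pseudoautosomal region, which chromosomes X and Y share, so reads of these genes could have been placed on either copy. IL2RG, the common gamma chain itself, did not reach the minimum, with 3.03, 3.39 and 6.24 scaled reads with the vector and 0, 1.01 and 4.82 under the nPD-L1 label. The partner chain through which the interleukin 21 receptor signals was thus near the floor in both groups.

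**Figure D2:**
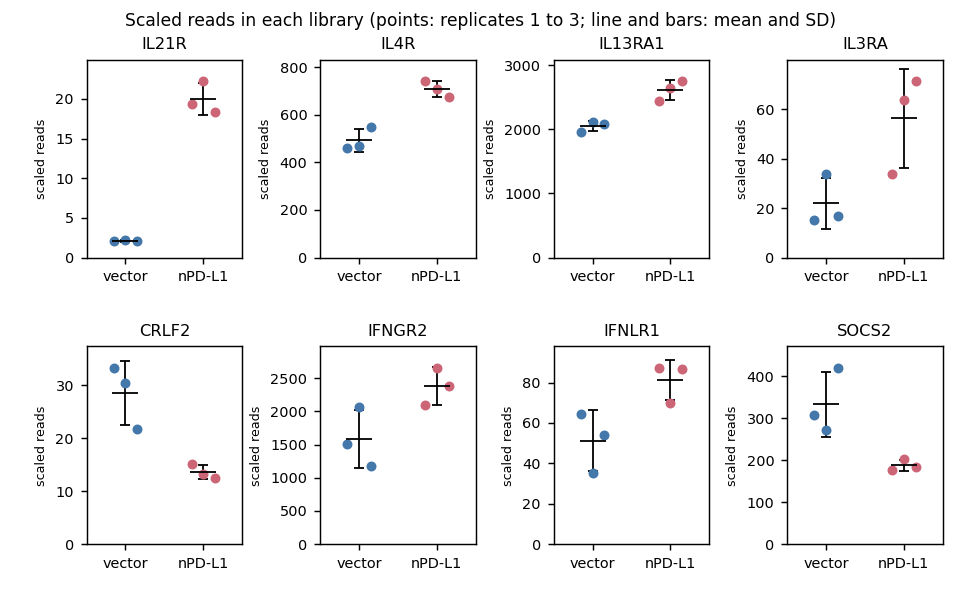
Scaled reads (y axis, from 0) of 7 receptor genes and SOCS2 in the 3 vector libraries and the 3 libraries labelled nPD-L1 (x axis). Points are replicates 1, 2 and 3 from left to right, and the line and bars give the mean and SD. The groups are separate in every panel except IL3RA, where vector replicate 2 (33.9) lies just above nPD-L1 replicate 1 (33.6).

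Among the 7 interferon and interleukin 10 type receptors, 0 passed the limma test. An unadjusted p under 0.05 was seen in 2, and in 14.2% of all genes tested. IFNGR2, the accessory chain of the interferon gamma receptor that brings JAK2 to the complex, had 1506, 2058 and 1184 scaled reads with the vector and 2088, 2657 and 2382 under the nPD-L1 label. The groups did not overlap, although the highest vector library (2058) came close to the lowest of the others (2088). The log2 fold change was 0.62 (SE 0.18, limma adjusted p = 0.0931). Without vector replicate 2, the highest vector library, it was 0.82 and passed (limma adjusted p = 0.000244). With any other library left out it did not pass (limma adjusted p = 0.152 to 0.315). IFNGR1, the ligand-binding chain of the same receptor, was level between the groups, with a log2 fold change of −0.00 and an SE of 0.17. IFNLR1, the specific chain of the interferon lambda receptor, had 64.6, 35.0 and 54.0 against 87.4, 69.8 and 86.8 scaled reads, again with no overlap (log2 fold change 0.69, SE 0.26, limma adjusted p = 0.229). Its partner IL10RB, which also serves interleukins 10 and 22, had 26.2, 26.0 and 12.5 against 12.6, 12.1 and 13.5 scaled reads. The low value of vector replicate 3 lay among those of the nPD-L1-labelled libraries, and the log2 fold change was −0.64 (SE 0.40). IFNAR1 and IFNAR2, the type I interferon receptor chains, had log2 fold changes of 0.12 each, and IL22RA1, the interleukin 22 receptor chain, one of −0.02. Of the genes in this group, IFNAR2, IL10RB, IFNAR1 and IFNGR2 lie in 1 cluster on chromosome 21, with neighbours 0.683, 14.3 and 43.0 kb apart, and their log2 fold changes ran from −0.64 to 0.62.

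The IL-6 family receptors differed little between the groups, with 0 of 5 passing the limma test, 0 at an unadjusted p under 0.05, and log2 fold changes from −0.12 to 0.18. IL6ST, the gp130 chain shared by the whole family, had 3794, 3888 and 4317 scaled reads with the vector and 3646, 4281 and 5114 under the nPD-L1 label, so the vector range lay inside the other (0.11, SE 0.13). OSMR, the oncostatin M receptor chain, was the highest of the family in log2 fold change (0.18), with 2664, 2302 and 2633 against 2617, 2945 and 3037 scaled reads. IL11RA, the specific receptor of interleukin 11, was the lowest (−0.12) and had 109, 94.9 and 92.5 against 92.4, 87.0 and 91.6 scaled reads. These groups touched without overlapping, and the adjusted p from limma was 0.803. IL6R and LIFR had log2 fold changes of 0.17 and 0.05. In the hormone-type group, LEPR, the leptin receptor, had a log2 fold change of 0.02, EPOR, for erythropoietin, −0.11, and GHR, for growth hormone, −0.27. The fourth, the prolactin receptor PRLR, was under the minimum, with 2.02, 0 and 0 scaled reads with the vector and 0, 3.03 and 1.93 under the nPD-L1 label.

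The kinases and STATs showed no called change, in 0 of 10 genes, and 0 of them had an unadjusted p under 0.05 in limma, where 14.2% of all genes tested did. JAK1, which serves nearly every receptor above, had the highest log2 fold change of the kinases (0.30, SE 0.14, limma adjusted p = 0.363). Its scaled reads were 3215, 2445 and 3675 with the vector and 3751, 3655 and 3964 under the nPD-L1 label, and vector replicate 2 was the low one. Without it the log2 fold change of JAK1 was 0.14. JAK2 and TYK2 had log2 fold changes of 0.20 and 0.06. JAK3, the kinase that binds the common gamma chain, was the lowest at −0.36 (SE 0.35), with 19.2, 26.0 and 26.0 against 25.2, 16.2 and 14.5 scaled reads. STAT5A was the highest of the STATs (0.38, SE 0.19), with 124, 133 and 97.7 against 132, 174 and 155 scaled reads, and STAT4 was the lowest (−0.22, SE 0.21), with 110, 158 and 118 against 97.5, 138 and 97.4. STAT3 and STAT6, which carry signals from gp130 and from the interleukin 4 receptor, each had a log2 fold change under 0.06 with SEs of 0.09 and 0.10. STAT5B (0.15) and STAT2 (−0.10), the latter a partner in the type I interferon response, completed the set.

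Of the 16 genes grouped here as inhibitors (SOCS family, PIAS and phosphatases, whatever the role of each gene), SOCS2 alone was called by limma. SOCS2 (ENSG00000120833; chromosome 12, 93569814 to 93583487, + strand), known as a brake on growth hormone signaling and a STAT5 target, had 307, 273 and 421 scaled reads with the vector and 177, 203 and 183 under the nPD-L1 label. The groups did not overlap, and the mean dropped from 334 ± 77.4 to 188 ± 13.6 (SD, n = 3 each), with more spread among the vector libraries. The log2 fold change was −0.80 (SE 0.17, limma adjusted p = 0.0227). The call was lost without vector replicate 1, nPD-L1 replicate 1 or nPD-L1 replicate 3 (limma adjusted p = 0.0726, 0.119 and 0.114), where the log2 fold change was −0.85, −0.76 and −0.79.

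SOCS1, the inhibitor that binds Janus kinases directly, was the highest of its family in log2 fold change (0.87, SE 0.42, limma adjusted p = 0.388). Its scaled reads were 11.1, 12.4 and 8.31 with the vector and 12.6, 25.3 and 25.1 under the nPD-L1 label, so nPD-L1 replicate 1 was barely above the vector libraries. SOCS3, the inhibitor of gp130 signaling, had 872, 660 and 814 against 1437, 797 and 958 scaled reads. One library, nPD-L1 replicate 1, stood above the rest, and the groups overlapped (0.41, SE 0.20). CISH was low throughout, at 4.04, 10.2 and 5.20 against 6.72, 11.1 and 10.6 scaled reads (0.55, SE 0.53), and it is the gene with the 4 GAS cores printed above. SOCS4, SOCS5, SOCS6 and SOCS7 ranged from −0.12 to 0.29 on the log2 scale. The PIAS genes ran from −0.12 for PIAS3 to 0.18 for PIAS1, and the phosphatases from −0.06 for PTPN1, which acts on JAK2 and TYK2, to 0.11 for PTPN11, the SHP2 phosphatase.

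Set side by side, 2 of 20 receptors tested were called higher and 0 lower, and 0 of 10 kinases and STATs were called. Of the 16 genes grouped as inhibitors, 0 were called higher and 1 lower. The median log2 fold changes were 0.11, 0.06 and 0.12 in the same order. Over all genes tested, 4.04% were called higher and 0.922% lower, and no difference between the classes is read from such small counts. Counted by lack of overlap between the groups, 6 members were higher (IL21R, IL4R, IL13RA1, IFNGR2, IFNLR1 and SOCS1), where 12.0% of all genes tested were, and 3 were lower (SOCS2, CRLF2 and IL11RA), where 8.54% were. Together these were 9 members, or 19.6% of those tested, against 20.6% of all genes tested. Vector replicate 2 was the lowest of the vector libraries in 23 of the 46 members, or 50%, against 41.4% of all genes tested. It was the highest of them in 16 members, or 34.8%, against 40.9% of all genes tested. The part of vector replicate 2 in these results was not tested beyond leaving it out.

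Levels were compared between genes only per kilobase of gene length. In the vector libraries the most abundant members were PTPN11 (565 ± 106 scaled reads per kilobase), IFNGR2 (535 ± 149), JAK1 (493 ± 98.4), IL13RA1 (470 ± 17.5) and IL6ST (430 ± 30.0; SD, n = 3 each), and these neighbours did not differ beyond their spread. OSMR (353 ± 28.0) and STAT3 (303 ± 9.93) followed. IL4R, at 83.5 ± 8.02, was in the middle of the order, and SOCS2 stood at 49.2 ± 11.4. At the low end were SOCS1 (5.91 ± 1.17), JAK3 (3.48 ± 0.576), CISH (1.26 ± 0.637), IL21R (0.388 ± 0.0229) and PRLR (0.0513 ± 0.0889). In the nPD-L1-labelled libraries, IL21R stood at 3.65 ± 0.373 per kilobase, a level near that of JAK3 (2.73 ± 0.847) and far under that of IL4R (120 ± 5.67). IFNGR2 was the most abundant member there, at 803 ± 96.2 per kilobase.

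**Figure D3:**
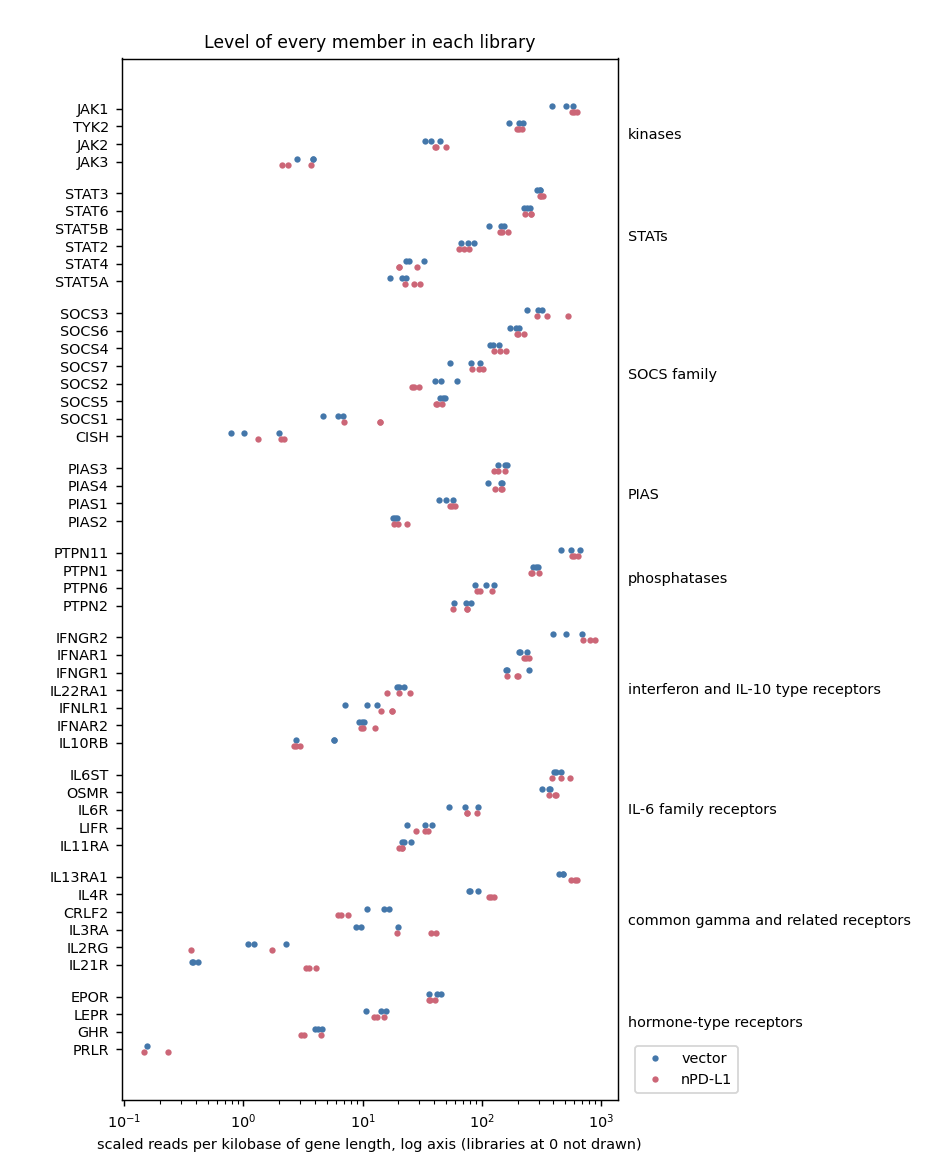
Scaled reads per kilobase of gene length (x axis, log scale) of all 48 members by role (y axis), with 1 point for each library and values of 0 not drawn. Levels run from under 1 for PRLR to 565 for PTPN11 (mean of the vector libraries), and for most members the points of both groups lie on top of one another.

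Several members share bases with other genes in the annotation, and the strand setting of the counting was not given, so reads in shared stretches could belong to either gene. CISH (6.47 ± 3.25 scaled reads in the vector libraries) overlaps MAPKAPK3 (mean 1300), SOCS1 overlaps RMI2 (484), PTPN11 overlaps RPL6 (30400), LEPR overlaps LEPROT (987) and IL11RA overlaps GALT (192). SOCS2 overlaps SOCS2-AS1, whose mean was 38.7 with the vector and 31.4 under the nPD-L1 label. STAT6 overlaps NAB2, whose mean was 314 with the vector and 849 under the nPD-L1 label.

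The rest of the pathway was read from 6 lists with 179 genes outside the members, of which 110 were tested. Limma called 12 of them higher and 2 lower, or 12.7%, against the 4.96% of all genes tested given above, and these lists had been chosen with earlier results of these data known, so nothing is read from that difference. Of the 14 ligands tested, 3 were called. IL11, an IL-6 family cytokine, had 633, 373 and 1367 scaled reads with the vector and 11821, 7450 and 7544 under the nPD-L1 label (log2 fold change 3.67, SE 0.43, limma adjusted p = 0.00247; 0.0662 without vector replicate 2). CLCF1, a ligand of the CNTF receptor, had 463, 351 and 467 against 991, 784 and 847 (1.04, adjusted p = 0.00154). IL6 moved the other way, from 52.5, 82.4 and 23.9 to 4.20, 5.06 and 11.6 scaled reads (−2.71, limma adjusted p = 0.0106; 0.0672 without vector replicate 1 and 0.0666 without nPD-L1 replicate 1). IL6 reached the minimum value through the vector libraries, where it was high, and was not tested when all 6 libraries had to reach it. IL6R, IL11RA and IL6ST, the receptor chains for IL6 and IL11, did not pass the test. LIF, of the same family, had 3936, 3423 and 3633 against 4120, 4556 and 5019 scaled reads without overlap (0.31, limma adjusted p = 0.169), and was named after its values were seen. TSLP, the ligand of CRLF2, was also picked out after its values were seen. It was under the minimum, at 5.05, 9.04 and 2.08 against 0.84, 2.02 and 0.965 scaled reads, which puts it near the floor in both groups.

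Among 7 other receptors tested, 0 passed the limma test and 1 had an unadjusted p under 0.05, as 14.2% of all genes tested did. IL20RB, a chain of the interleukin 20 receptors, had a log2 fold change of 0.66 with an SE of 0.56. Of 25 adaptors and downstream kinases tested, 3 were called higher. They were SH2B3, an adaptor that restrains JAK2 (0.73), PIK3CD, a PI3-kinase catalytic subunit (0.70), and SOS2, a Ras exchange factor (0.70), with adjusted p values of 0.00823, 0.0349 and 0.00503 from limma. The SH2B3 call was lost without nPD-L1 replicate 1 (0.0511) or 3 (0.0595), and the PIK3CD call without vector replicate 1 (0.121) or nPD-L1 replicate 1, 2 or 3 (0.175, 0.0825 and 0.119, all adjusted p values from limma).

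Of 16 acute-phase and IL-6 response genes tested, 4 were called higher, and these encode nuclear factors and a kinase, while 8 of the 16 had a log2 fold change below 0. The lowest was CEBPD, an acute-phase transcription factor picked out after its values were seen, with 923, 1679 and 510 against 429, 396 and 369 scaled reads without overlap (−1.22, limma adjusted p = 0.141). JUNB, an AP-1 subunit, had 630, 778 and 572 scaled reads with the vector and 17206, 17283 and 14109 under the nPD-L1 label (4.62, SE 0.13, limma adjusted p = 2.7e-08). PIM1, a survival kinase induced by STAT3 and STAT5, had 576, 613 and 572 against 1153, 1061 and 972 (0.85, adjusted p = 0.000785). BCL3, an NF-kB cofactor, and CEBPB, an acute-phase transcription factor, had log2 fold changes of 0.78 and 0.53 (limma adjusted p = 0.00126 and 0.0328). The CEBPB call was lost without vector replicate 1 or 3 (0.133 and 0.0716) and without nPD-L1 replicate 1 or 2 (limma adjusted p = 0.165 and 0.153).

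**Figure D4:**
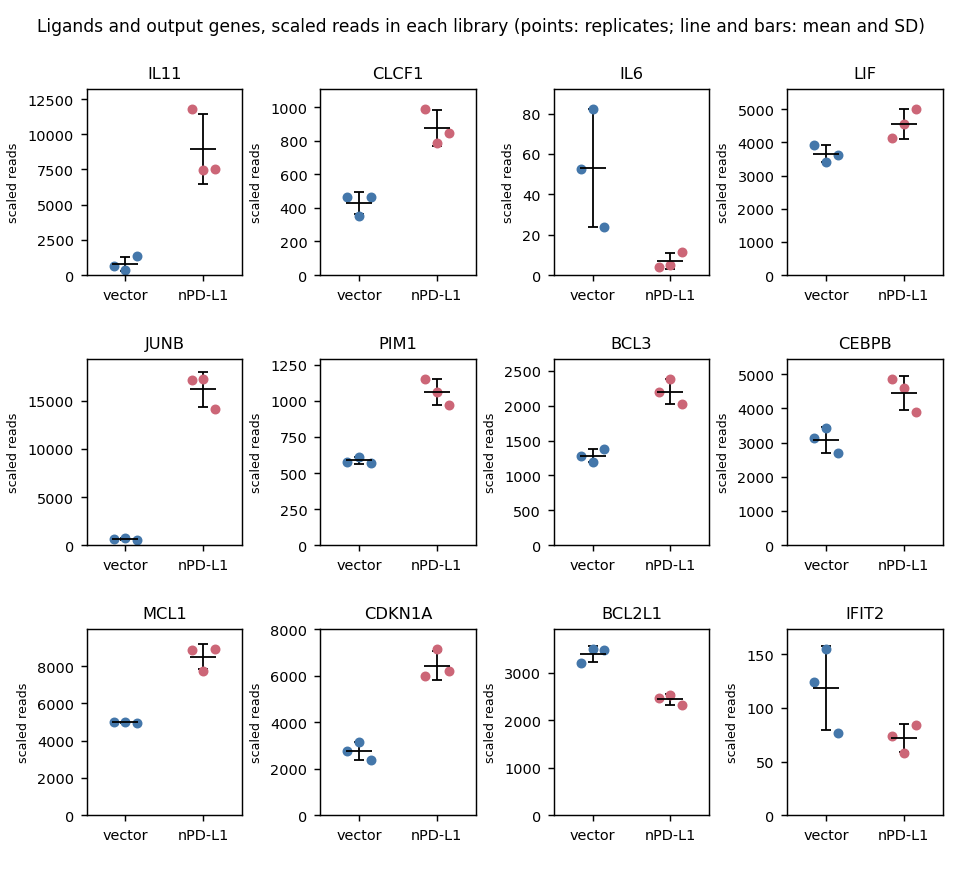
Scaled reads (y axis, from 0) of 4 IL-6 family ligands (top row) and 8 output genes in the 3 vector libraries and the 3 libraries labelled nPD-L1 (x axis). Points are replicates 1, 2 and 3 from left to right, and the line and bars give the mean and SD. IL11 and JUNB rise the most (log2 fold changes 3.67 and 4.62), IL6 (−2.71) and BCL2L1 (−0.48) fall, and IFIT2 overlaps between the groups.

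Of 36 interferon-stimulated genes tested, 0 passed the limma test, and the median log2 fold change was −0.10. An unadjusted p under 0.05 was seen in 1 of them, and in 14.2% of all genes tested. The 2 largest in size were IFIT2 and IFI27. IFIT2 had 124, 155 and 76.9 against 74.0, 57.7 and 83.9 scaled reads (−0.67, limma adjusted p = 0.269). Its limma adjusted p was 0.0363 without vector replicate 3 and reached 0.62 with another library left out. IFI27 had a log2 fold change of 0.50 (limma adjusted p = 0.597), which was 0.055 without vector replicate 3. In log2 fold change, 14 of them lay above 0 (38.9%, against 46.7% of all genes tested) and 22 below, beside the values of 0.62 for IFNGR2 and 0.69 for IFNLR1. Among the ligands, IFNA1, IFNL1, IFNL2 and IFNL3 did not exceed 4.16 scaled reads in any library, and IFNE did not exceed 21.5. A link between the receptors and these target genes was not tested.

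Of 12 growth and survival outputs tested, 3 were called higher and 1 lower. CDKN1A, the p21 cell-cycle inhibitor, rose from 2747, 3165 and 2380 to 5967, 7149 and 6190 scaled reads (1.22, limma adjusted p = 0.000169). MCL1, an anti-apoptotic BCL2 family gene, rose from 4993, 5010 and 4921 to 8853, 7739 and 8915 (0.77, limma adjusted p = 0.000943). Its relative BCL2L1 fell, from 3203, 3495 and 3477 to 2455, 2530 and 2317 (−0.48, limma adjusted p = 0.0125), with the call lost without nPD-L1 replicate 1, 2 or 3 (0.06, 0.0564 and 0.087). EGR1, an immediate-early transcription factor, had a log2 fold change of 0.87 (limma adjusted p = 0.0345), and lost its call without vector replicate 1 or 3 (0.145 and 0.0585) or nPD-L1 replicate 1 or 3 (0.151 and 0.0953).

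**Figure D5:**
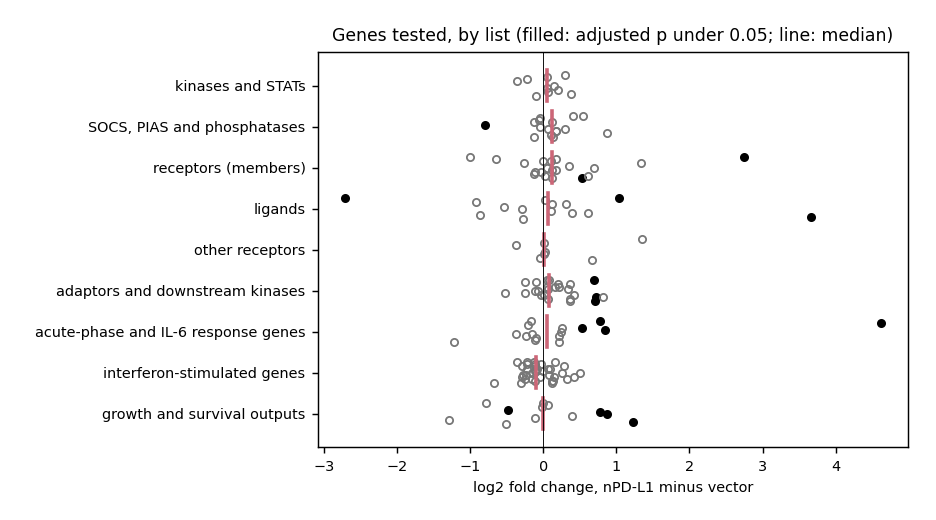
Log2 fold change (x axis, libraries labelled nPD-L1 minus vector) of the genes tested in the 3 classes of members and the 6 lists of other pathway genes (y axis). Each point is a gene, filled points have an adjusted p under 0.05, and the vertical line marks the median. The medians of the lists lie between −0.10 and 0.12, and the points far from 0 are single genes such as JUNB, IL11, IL21R and IL6.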

How the data were processed

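Libraries were made from total RNA with a NEBNext Ultra kit, per the labels. The submitters' processing notes name CASAVA, HISAT2 2.0.5 and hg38, and the counter was not given in the sources used here. What the authors deposited for a library is a signal, its reads per gene over a size factor. The table's log2 fold change, p-value, adjusted p-value and group means, computed by the authors, were not used. All values are whole multiples of a step per library (tolerance 0.001), which gives 17427519 to 22253295 reads on genes over the 6 libraries. The parts of counting error and of the spread between libraries in the standard errors were not separated.

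Each library was grouped and numbered by its title. A test on log2(value + 1) in limma 3.58.1 (R 4.3.3; eBayes, trend and robust) was fitted to the 15076 genes with at least 10 scaled reads in at least 3 of the 6 libraries, with Benjamini-Hochberg adjustment over all of them. Fold changes on this scale understate those of low genes. edgeR 4.0.16 and DESeq2 1.42.0 were run on the 4 libraries whose step lies more than 0.02 from 1. The other 2, where scaled reads are nearly the reads themselves, were left out by this rule alone. Their values were whole multiples of the step as well, so the cut to 2 libraries per group was a choice of setting and not a limit of the data. The fit was tested on simulated data. Alternatives were upper-quartile and TMM scaling, pseudocounts of 0.1 and 10, 2 other low-value filters, moderation without the robust option, a restriction to protein-coding genes, a replicate block, leaving out each library, and different thresholds.

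Members and lists were chosen with earlier results of these data known. Named were members called, members without overlap or at least 0.5 from 0 on the log2 scale, the highest and lowest of each role, called genes of the other lists (the 2 largest where none was called), and CD274. Same-numbered libraries had correlations of −0.01, 0.23 and 0.13 between their deviations from the group means. Those of replicates 2 and 3 were the highest of all pairs, and that of replicate 1 was not. The main fit did not take the numbers as pairs. RefSeq windows were matched by symbol. Some genes are not reported here.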

Additional observations from a re-analysis of the deposited data

How the results depend on the processing

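The direction of IL21R, IL4R and SOCS2 held in every alternative in which they were tested, and upper-quartile and TMM scaling, both pseudocounts, non-robust moderation, protein-coding genes only and the absence of a low-value filter left all 3 called. The count of members called higher, 2, was 1 when a value of 10 was required in all 6 libraries (IL21R could not enter), 6 at an unadjusted p under 0.05, 1 with an added log2 fold threshold of 1, and 0 to 5 with each library left out. On the 4 libraries used for count models, limma, edgeR and DESeq2 each called 0 members higher and 0 lower, with 2 libraries per group, and each had 4 higher and 1 lower at an unadjusted p under 0.05. The count of members called lower, 1, was 2 at an unadjusted p under 0.05, 0 with the fold threshold and 0 to 1 with each library left out. For the 110 other pathway genes, 12 higher became 5 in limma, 5 in edgeR and 9 in DESeq2 on 4 libraries, 19 at an unadjusted p under 0.05 and 4 with the fold threshold, and 8 to 12 with each library left out. The 2 lower became 1 with a value of 10 required in all 6 libraries, 0 in limma, 0 in edgeR and 1 in DESeq2 on 4 libraries, 8 at an unadjusted p under 0.05, 1 with the fold threshold, and 0 to 6 with each library left out. IL11 was also not called without a low-value filter (adjusted p = 0.0667 from limma). JUNB, PIM1, CDKN1A, MCL1 and CLCF1 passed the adjusted p in all 18 alternative fits, but PIM1 and MCL1 lie under the log2 fold threshold of 1.

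With the replicate number as a block, 6 members were called higher (also IFNGR2, IL13RA1, IL3RA and SOCS3), 4 other pathway genes were called lower, and IL11 was not called (adjusted p = 0.0716 from limma). Over all genes tested, the block gave 927 called higher and 258 lower, against 609 and 139 without it. The same-numbered pairs of replicates 2 and 3 had the highest correlations of all pairs (0.229 and 0.131). That of replicate 1 was −0.0127, and vector replicate 1 correlated best with nPD-L1 replicate 3 (0.07). Whether same-numbered libraries shared a batch was not given and was not tested.

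Of the 46 members tested, 15 turned direction in at least 1 alternative, none of them called in any. With each library left out, log2 fold changes ranged from −0.0314 to 0.241 for PTPN11, −0.139 to 0.131 for LEPR (−0.0577 without nPD-L1 replicate 1), −0.111 to 0.2 for IFNGR1, −0.181 to 0.133 for IL22RA1, −0.0351 to 0.374 for IL6R, −0.0156 to 0.228 for IL6ST, −0.15 to 0.201 for LIFR, −0.0559 to 0.135 for PIAS4, −0.184 to 0.0845 for PTPN2, −0.183 to 0.0798 for PTPN6 and −0.0523 to 0.142 for TYK2. Omission of vector replicate 2 turned PTPN11, LEPR, IFNGR1, IL6R, LIFR, PIAS4, PTPN2, PTPN6 and TYK2, and omission of nPD-L1 replicate 1 also turned LEPR, IFNGR1, LIFR, PTPN2 and PTPN6. On the 4 libraries, PTPN1 was 0.0074 in edgeR and 0.00201 in DESeq2, EPOR 0.00203, IL22RA1 0.000303 and STAT2 0.00144 in edgeR, and STAT6 −0.0138 in limma, −0.00447 in edgeR and −0.0105 in DESeq2. LEPR was −0.00676 with upper-quartile factors and IFNGR1 0.00669 with TMM. The cause was not tested.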

Other observations

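Some members lie next to or near each other in the genome, as IL4R and IL21R do, which were both called higher (0.53 and 2.75 on the log2 scale). IFNAR2 and IFNAR1, 58.8 kb apart on chromosome 21, had 0.12 each, and IL10RB, which lies between them, had −0.64. STAT5B, STAT5A and STAT3 form a cluster on chromosome 17, with neighbours 10.8 and 1.38 kb apart, and had log2 fold changes of 0.15, 0.38 and 0.06. IL22RA1 and IFNLR1, 11 kb apart on chromosome 1, had −0.02 and 0.69. LIFR and OSMR, 238 kb apart on chromosome 5, had 0.05 and 0.18, and CRLF2 and IL3RA had −0.999 and 1.34. These values are given without a test of the difference between neighbours.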
